A study of Mus musculus with 6 samples.

Results

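The genes of the insulin receptor to FOXO1 pathway are described here in liver RNA of mice labelled as Cgref1 knockouts and of wild type mice. The set holds 9 genes, chosen by symbol, with earlier results of these data known. They are the receptor gene Insr, the adaptor genes Irs1 and Irs2, and the phosphoinositide 3-kinase (PI3K) subunit genes Pik3r1 and Pik3ca. The others are the kinase genes Akt1 and Akt2, the transcription factor gene Foxo1 and the receptor inhibitor gene Grb10. All 9 were among the 15953 genes of the deposited table, and all 9 passed the filter on low counts that kept 12033 genes for testing. The study sequenced messenger RNA from 6 livers of the C57BL/6 strain, 3 with the genotype label Cgref1 KO and 3 with the label Wild Type, each called a biological replicate. The knockout allele, and the sex, age and feeding state of the mice, are not described in the labels, and nothing more is said of how replicates were obtained, so p-values measure the spread between these samples.

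Insulin binds its receptor on the hepatocyte, and the activated receptor phosphorylates the insulin receptor substrates IRS1 and IRS2. These recruit PI3K, whose lipid product brings AKT to the membrane, where it is activated. AKT phosphorylates FOXO1, which then leaves the nucleus and no longer drives genes of glucose output such as G6pc and Pck1, or the genes Igfbp1 and Irs2. RNA levels give the supply of these parts and not their phosphorylation, through which the signal runs.

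Library totals were 17627734 to 18366443 estimated counts, and the spread of a gene within a genotype (biological coefficient of variation) was 15.8%. Cgref1 itself had 7, 12 and 10 counts in knockout-labelled replicates 1, 2 and 3, against 7, 7 and 19 counts in wild type replicates 1, 2 and 3. These counts were similar under both labels but low, and Cgref1 did not pass the filter on low counts. The confidence interval of its log2 fold change, knockout-labelled over wild type, ran from -1.24 to 1.01. Counts this low cannot show whether the transcript was reduced. The genotype therefore rests on the label, and the libraries are called knockout-labelled. The labels name hepatocytes as the cell type; 8 hepatocyte markers such as Alb summed to 74559 to 96494 CPM (counts scaled to an equal library size) in knockout-labelled and 72700 to 104637 CPM in wild type libraries. Markers of other liver cells were also counted: 10 Kupffer cell markers summed to 354 to 382 CPM in knockout-labelled and 283 to 313 CPM in wild type libraries, and 8 stellate cell and fibroblast markers to 198 to 231 CPM in knockout-labelled and 229 to 303 CPM in wild type libraries. Dcn made up most of each stellate cell and fibroblast sum. By log2 fold change 6 of these markers were lower in knockout-labelled libraries and 2, Acta2 and Col3a1, were higher. Acta2 had 4.20, 1.92 and 1.87 CPM in knockout-labelled and 1.05, 1.33 and 1.04 CPM in wild type replicates 1, 2 and 3. In bulk tissue, fewer cells of a type and less RNA per cell cannot be told apart. A list of 8 intestinal genes summed to 60.6 to 81.4 CPM in knockout-labelled libraries and to 129, 73.5 and 123 CPM in wild type replicates 1, 2 and 3. Nearly all of each sum was Fabp2, which had 73.4, 81.4 and 60.5 CPM in knockout-labelled and 122, 73.2 and 115 CPM in wild type replicates 1, 2 and 3. The other 7 genes together had 0 to 0.165 CPM in knockout-labelled libraries and 7.45, 0.319 and 7.75 CPM in wild type replicates 1, 2 and 3, and Lct, Sis, Reg3b, Reg3g, Krt20 and Cdh17 were at 0 counts in every knockout-labelled library. Results were also computed without wild type replicates 1 and 3 together.

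Stretches of 250 bases before the transcription start are shown for the adaptor genes Irs1 and Irs2 and for the FOXO1-activated gene Igfbp1, because FOXO1 is known to bind the letters CAAAACA, the insulin response sequence, before Igfbp1. They are RefSeq sequences of GRCm38.p6, written 5′ to 3′ on the strand of the gene, with CAAAACA or its reverse complement TGTTTTG in capitals. Irs1 is read from the minus strand of chr1:82291440-82291689, Irs2 from the minus strand of chr8:11008930-11009179 and Igfbp1 from the plus strand of chr11:7197537-7197786.
Irs1: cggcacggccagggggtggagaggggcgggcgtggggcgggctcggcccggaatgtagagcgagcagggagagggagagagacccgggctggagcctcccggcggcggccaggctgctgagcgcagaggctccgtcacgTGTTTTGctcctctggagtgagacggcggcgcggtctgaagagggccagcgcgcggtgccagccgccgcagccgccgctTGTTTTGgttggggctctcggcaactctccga
Irs2: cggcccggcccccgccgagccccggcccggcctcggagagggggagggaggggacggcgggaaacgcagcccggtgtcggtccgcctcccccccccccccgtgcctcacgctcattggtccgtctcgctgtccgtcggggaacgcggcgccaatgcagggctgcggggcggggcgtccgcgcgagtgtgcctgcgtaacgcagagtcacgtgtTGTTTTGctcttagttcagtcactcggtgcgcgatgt
Igfbp1: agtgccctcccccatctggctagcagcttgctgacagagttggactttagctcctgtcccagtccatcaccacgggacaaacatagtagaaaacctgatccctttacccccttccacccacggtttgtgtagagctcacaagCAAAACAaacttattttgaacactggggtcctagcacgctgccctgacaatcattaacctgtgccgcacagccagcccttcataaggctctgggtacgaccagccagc
Irs1 held the motif at 111 and 32 bases before the start, Irs2 at 37 bases and Igfbp1 at 108 bases, counted to its first base as printed. Of the 9 genes, 8 matched the promoter table, with 14 start sites; the match was found before Irs1 and Irs2, and GTAAACA, the core FOXO motif, before 1 start site of Akt1. The Irs1 window follows the RefSeq start and lies inside the span the deposited table gives for Irs1. The Irs2 window also follows the RefSeq start. It lies upstream of the Irs2 start in the deposited table (11008430) and in the GENCODE annotation (11008458), without reaching either. The distances above are thus from RefSeq starts. On either strand CAAAACA stood in 5.56% and GTAAACA in 3.17% of all 32851 windows of this length. Windows of G6pc and Pck1, which FOXO1 also activates, were scanned but are not printed. G6pc held TGTTTTG at 174 bases before the start, and Pck1 held neither motif. A match describes the letters and is not a measured binding site.

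Levels of different genes were compared in TPM, which scales transcripts to an equal total and corrects for length. Over the 6 libraries Akt2, the main AKT form of insulin-responsive tissues, was highest at 54.0 ± 4.58 TPM (SD, n = 6), followed by Akt1 at 32.2 ± 5.31 TPM. Pik3r1, Foxo1 and Insr followed at means of 13.2, 12.3 and 10.8 TPM, and their ranges over the 6 libraries overlapped (9.83 to 16.2, 9 to 14.6 and 9.61 to 12.5 TPM). Pik3ca, for a catalytic subunit of PI3K, stood below them at 6.49 ± 0.621 TPM (SD, n = 6). Irs1 and Irs2 were lower still, at 1.78 and 1.68 TPM, and Irs1 exceeded Irs2 in 3 of the 6 libraries. Grb10 was lowest at 0.885 TPM, below Irs2 in 5 of 6 libraries, which made the mean of Akt2 61.1-fold that of Grb10. The ranges of Akt2 and Akt1, of Akt1 and Pik3r1, of Insr and Pik3ca, and of Pik3ca and Irs1 were apart, and those of the other neighbours in this order overlapped.

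**Figure D1:**
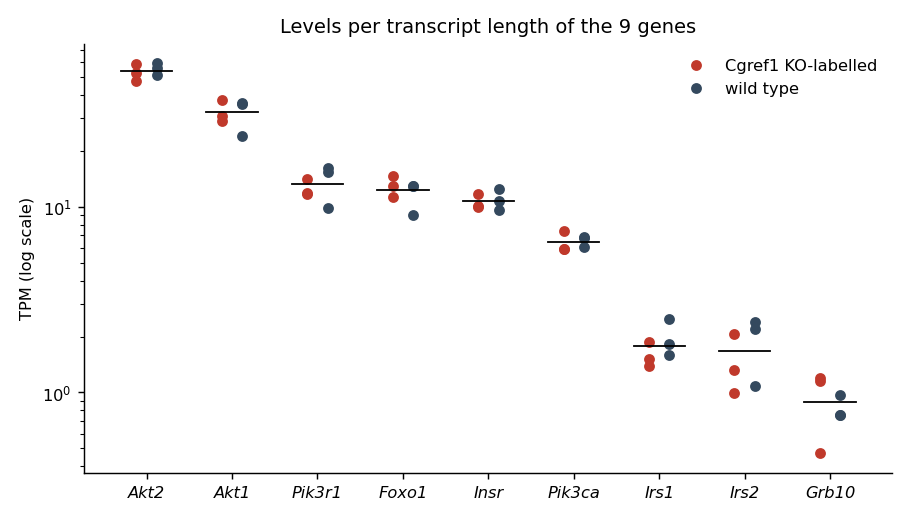
Level of each of the 9 genes in TPM (log axis), with 1 point per library, knockout-labelled left and wild type right, and a line at the mean of the 6 libraries. Akt2 lies at the top at 54.0 TPM and Grb10 at the bottom at 0.885 TPM; the points of the 2 genotypes overlap for every gene.

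The comparison asked whether liver expression differed between knockout-labelled and wild type mice. None of the 9 genes passed the test: the quasi-likelihood test of edgeR, with p-values adjusted over all genes by Benjamini-Hochberg, called 0 of 9 at an adjusted p under 0.05, DESeq2 called 0 and limma-voom called 0. The same edgeR fit called 1 of 12033 genes (0.00831%), the zinc-finger gene Gm14434, named after its value was seen; DESeq2 called 0.233% and limma-voom 0.00831%. At an unadjusted p under 0.05 edgeR gave 0 of the 9, against 5.15% of all genes (2.95% higher and 2.2% lower). The CPM ranges of the 2 genotypes overlapped for all 9, and did not overlap for 10.8% of all genes tested (6.19% higher and 4.63% lower). In the authors' deposited table the q-value of each of the 9 was 0.999.

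The median log2 fold change, knockout-labelled over wild type, was 0.08 over the 9 genes and -0.0022 over all genes tested, with 6 of the 9 positive against 49.5% of all genes. The 95% confidence intervals were narrowest for Akt2, at 0.897 to 1.204 of the wild type level, and widest for Grb10, at 0.723 to 2.13. On the log2(TPM + 1) scale the median of all genes was itself shifted by -0.11, so fold changes below are from TMM-scaled counts; there Insr, Pik3ca and Akt2 had values of -0.04, -0.03 and -0.07, above that shift.

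Insr encodes the receptor and lies on chromosome 8 from 3150922 to 3280371 (GRCm38, here and below). It had 80.9, 75.6 and 71.7 CPM in knockout-labelled replicates 1, 2 and 3, against 72.5, 80.9 and 62.2 CPM in wild type replicates 1, 2 and 3. The knockout-labelled values all lay inside the wild type range. The log2 fold change was 0.08 (SE 0.11), with a 95% confidence interval of 0.890 to 1.26 in fold and an edgeR adjusted p of 0.988. It was -0.10 without wild type replicates 1 and 3 together. Igf1r, the related receptor for insulin-like growth factor 1, was low at 0.277 TPM, and mean Insr TPM was 38.9-fold that of Igf1r.

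Of the adaptors, Irs1 (chromosome 1, 82231918 to 82291868) had 10.2, 10.1 and 13.1 CPM in knockout-labelled and 11.9, 10.1 and 15.7 CPM in wild type replicates 1, 2 and 3. Irs2 (chromosome 8, 10955504 to 11008430), whose transcription insulin represses in liver, had 5.95, 3.08 and 3.97 CPM in knockout-labelled and 6.68, 5.95 and 2.95 CPM in wild type replicates 1, 2 and 3. For both adaptors each knockout-labelled value lay within the wild type range. Irs2 varied within each genotype, on 53 to 121 counts per library. Knockout-labelled replicate 1 and wild type replicates 1 and 2 had 5.95 to 6.68 CPM, and the other libraries stood at or below 3.97 CPM. The log2 fold changes were -0.17 (SE 0.19) for Irs1 and -0.26 (SE 0.34) for Irs2, with an edgeR adjusted p of 0.988 for each. A fall of Irs2 to 0.489 of the wild type level, or a rise to 1.42, lies within its interval. Without 1 library the value of Irs2 lay between -0.56, without knockout-labelled replicate 1, and -0.05, without wild type replicate 1. The sign of Irs1 turned without wild type replicate 3 (log2 fold change 0.02).

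Pik3r1 (chromosome 13, 101680761 to 101768217) encodes the regulatory subunit p85 alpha, which docks PI3K to the IRS proteins. It had 54.2, 71.5 and 56.4 CPM in knockout-labelled and 45.4, 67.9 and 69.8 CPM in wild type replicates 1, 2 and 3, a log2 fold change of -0.0081 (SE 0.18). Pik3ca (chromosome 3, 32395298 to 32471403), for the catalytic subunit p110 alpha, had 36.7, 32.2 and 30.7 CPM in knockout-labelled and 33.1, 31.8 and 28.0 CPM in wild type replicates 1, 2 and 3, a log2 fold change of 0.10 (SE 0.11). The genotypes overlapped for both subunits, with wild type replicate 1 lowest for Pik3r1 and wild type replicate 3 lowest for Pik3ca. Pik3ca was the 1 member with estimated counts that were not whole, 554.41 and 556.85 in knockout-labelled replicates 2 and 3.

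Akt1 (chromosome 12, 112653821 to 112674796) encodes the broadly expressed AKT form. It had 54.5, 62.4 and 74.0 CPM in knockout-labelled and 42.5, 63.2 and 62.6 CPM in wild type replicates 1, 2 and 3. Akt2 (chromosome 7, 27591557 to 27640795) had 128, 111 and 119 CPM in knockout-labelled and 109, 121 and 114 CPM in wild type replicates 1, 2 and 3. Wild type replicate 1 was the lowest of the 6 libraries for both kinases, and the genotypes overlapped. The log2 fold changes were 0.18 (SE 0.17) for Akt1 and 0.06 (SE 0.09) for Akt2, with edgeR adjusted p-values of 0.988 and 0.990. Without wild type replicate 1 the value of Akt1 was 0.01.

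Foxo1 (chromosome 3, 52268337 to 52353381) came nearest to a difference among the 9 genes. It had 58.7, 49.0 and 54.3 CPM in knockout-labelled and 35.2, 49.1 and 48.7 CPM in wild type replicates 1, 2 and 3. Knockout-labelled replicates 1 and 3 stood above all wild type libraries, and knockout-labelled replicate 2 stood level with wild type replicates 2 and 3. The log2 fold change was 0.28 (SE 0.14), or 1.22-fold with a 95% confidence interval of 0.983 to 1.51, with an unadjusted p of 0.0676 and an adjusted p of 0.968 in edgeR. The value rested on wild type replicate 1, the lowest library: it was 0.14 without that library and 0.12 without wild type replicates 1 and 3 together.

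Grb10 (chromosome 11, 11930499 to 12037422) encodes an adaptor that binds the activated receptor and inhibits it, and is an imprinted gene. Its counts were 28, 74 and 79 in knockout-labelled and 47, 61 and 45 in wild type replicates 1, 2 and 3, or 1.63, 4.30 and 4.35 CPM against 2.59, 3.24 and 2.46 CPM. Knockout-labelled libraries held both the lowest and the highest values, and the coefficient of variation was 45.4% in knockout-labelled and 15.2% in wild type libraries. The log2 fold change was 0.31 (SE 0.35, edgeR adjusted p 0.988), and it moved to 0.64 without knockout-labelled replicate 1 and to 0.10 without knockout-labelled replicate 3. With wild type replicates 1 and 3 both left out it was 0.07.

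**Figure D2:**
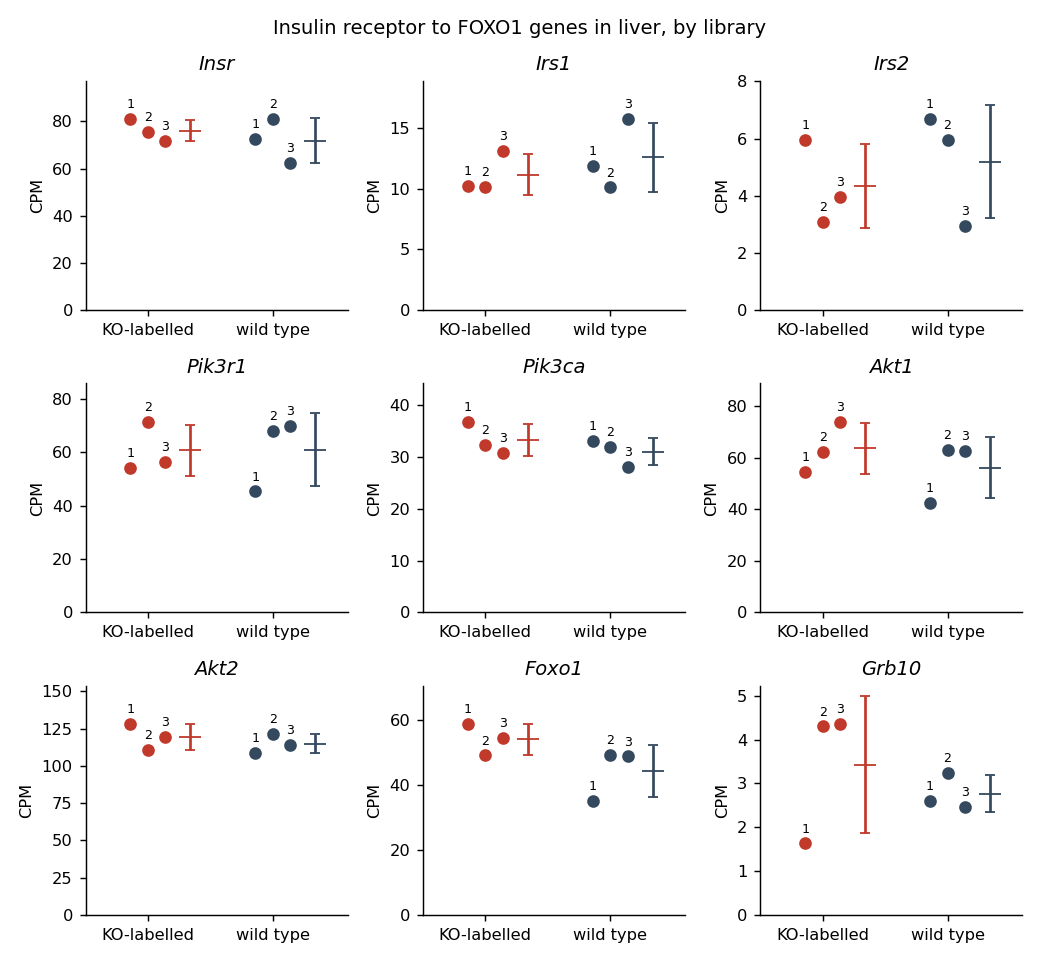
CPM of each of the 9 genes in every library (points, numbered by replicate; knockout-labelled left, wild type right), with the mean and SD of each genotype beside them (n = 3). For Foxo1, wild type replicate 1 stands apart at 35.2 CPM. For Irs2, values of 5.95 to 6.68 CPM and values at or below 3.97 CPM occur in both genotypes.

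Ratios within a library show the balance of related parts without scaling between libraries. In TPM, Irs1 over Irs2 was 0.734, 1.40 and 1.42 in knockout-labelled and 0.761, 0.727 and 2.29 in wild type replicates 1, 2 and 3. Akt1 over Akt2 was 0.493, 0.651 and 0.717 in knockout-labelled and 0.469, 0.614 and 0.642 in wild type replicates 1, 2 and 3, so Akt2 exceeded Akt1 in each library. Pik3ca over Pik3r1 was 0.635, 0.420 and 0.501 in knockout-labelled and 0.690, 0.444 and 0.374 in wild type replicates 1, 2 and 3. Grb14, for the inhibitory adaptor of the insulin receptor that is abundant in liver, stood 3.78, 4.03 and 3.49 times over Insr in knockout-labelled and 4.93, 3.47 and 3.49 times in wild type replicates 1, 2 and 3. All 4 ratios overlapped between the genotypes, and their mean log2 ratios differed by -0.06 to 0.11. In a two-sided exact permutation test the unadjusted p-values were 0.5 to 1.0, and 1.0 for each after adjustment over the 4, where 3 against 3 libraries cannot go below 0.10.

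Further genes of the pathway were taken from 6 lists by role, 56 genes in all, of which 55 were tested. None of them passed the test: edgeR called 0 at an adjusted p under 0.05, and DESeq2 and limma-voom called 0. At an unadjusted p under 0.05 edgeR gave 3 of the 55, 2 higher and 1 lower, or 5.45% against 5.15% of all genes. The genotypes did not overlap in CPM for 5 of the 55, 2 higher and 3 lower, against 10.8% of all genes. The median log2 fold change of the 55 was -0.02, with 24 positive and 31 negative values.

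Among 8 receptor-proximal genes Shc1 and Grb2, adaptors that lead to the MAP kinase branch, were the highest at 21.8 and 19.0 TPM. The smallest p-values there belonged to Sos1, a RAS activator (log2 fold change -0.19, SE 0.12), Grb2 (0.11, SE 0.10) and the adaptor gene Sh2b2 (0.31, SE 0.34). Among 8 other PI3K genes the highest were Pik3ap1, for a PI3K adaptor, at 23.9 TPM and Pik3r2, for the regulatory subunit p85 beta, at 9.11 TPM. Pik3c2g, for a class II PI3K of the liver, had 2.97, 2.21 and 1.76 CPM in knockout-labelled and 4.80, 3.29 and 3.16 CPM in wild type replicates 1, 2 and 3. The genotypes did not overlap, with a log2 fold change of -0.70 (SE 0.27), an unadjusted p of 0.0282 and an adjusted p of 0.926 in edgeR. Pik3cb, for the catalytic subunit p110 beta, had 15.7, 16.9 and 16.2 CPM in knockout-labelled and 18.05, 19.29 and 16.97 CPM in wild type replicates 1, 2 and 3 (-0.15, SE 0.11), and Pik3cd, for the leukocyte form p110 delta, a log2 fold change of 0.33 (SE 0.26).

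Among 14 inhibitors of the pathway, Grb14 stood at 41.6 TPM. Mean Grb14 TPM was 47.0-fold that of Grb10. Inpp5d encodes SHIP1, a lipid phosphatase of blood-derived cells, and had 3.61, 3.14 and 3.64 CPM in knockout-labelled and 2.15, 2.39 and 1.80 CPM in wild type replicates 1, 2 and 3. The genotypes did not overlap (log2 fold change 0.71, SE 0.22, edgeR unadjusted p 0.00891 and adjusted p 0.850), and the Kupffer cell markers, summed above, did not overlap either and were higher in the knockout-labelled libraries, with all 10 positive and 6 at an unadjusted p under 0.05; their part in this value was not tested. The log2 fold change was -0.34 (SE 0.18) for Ptpn2, a tyrosine phosphatase gene, and 0.80 (SE 0.44) for Socs1, a suppressor of cytokine signalling, at a mean below 1 CPM in each genotype.

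Among 16 kinase and TOR complex genes Rheb, for the activator of mTORC1, and Akt1s1, for the AKT substrate PRAS40, were highest at 43.4 and 43.0 TPM. Prkcz, for an atypical protein kinase C that acts below PI3K, had 27.6, 30.0 and 28.3 CPM in knockout-labelled and 19.7, 24.7 and 16.6 CPM in wild type replicates 1, 2 and 3. The lowest knockout-labelled value exceeded the highest wild type value, with a log2 fold change of 0.49 (SE 0.15), an unadjusted p of 0.00708 and an adjusted p of 0.850 in edgeR. Leaving out 1 library at a time, the log2 fold change of Prkcz lay between 0.36 and 0.67. It was 0.20 without wild type replicates 1 and 3 together, with 1 wild type library left. Its sign held in all 18 alternatives, and none brought Prkcz past the adjusted threshold. Rps6kb1, for the S6 kinase, and Tsc2, for a brake on mTORC1, had log2 fold changes of 0.12 (SE 0.11) and 0.09 (SE 0.10). Of the FOXO factors and their regulators, Crtc2, a coactivator of CREB, and Foxo4 were highest at 11.9 and 10.2 TPM, and the log2 fold changes were 0.13 (SE 0.11) for Foxo3 and -0.16 (SE 0.10) for the acetyltransferase gene Ep300, whose CPM values did not overlap between the genotypes. Foxo6 was below the filter. Ceacam1, which promotes insulin clearance, and Ide, for the insulin-degrading enzyme, stood at 51.9 and 24.5 TPM, with log2 fold changes of -0.06 and 0.03.

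**Figure D3:**
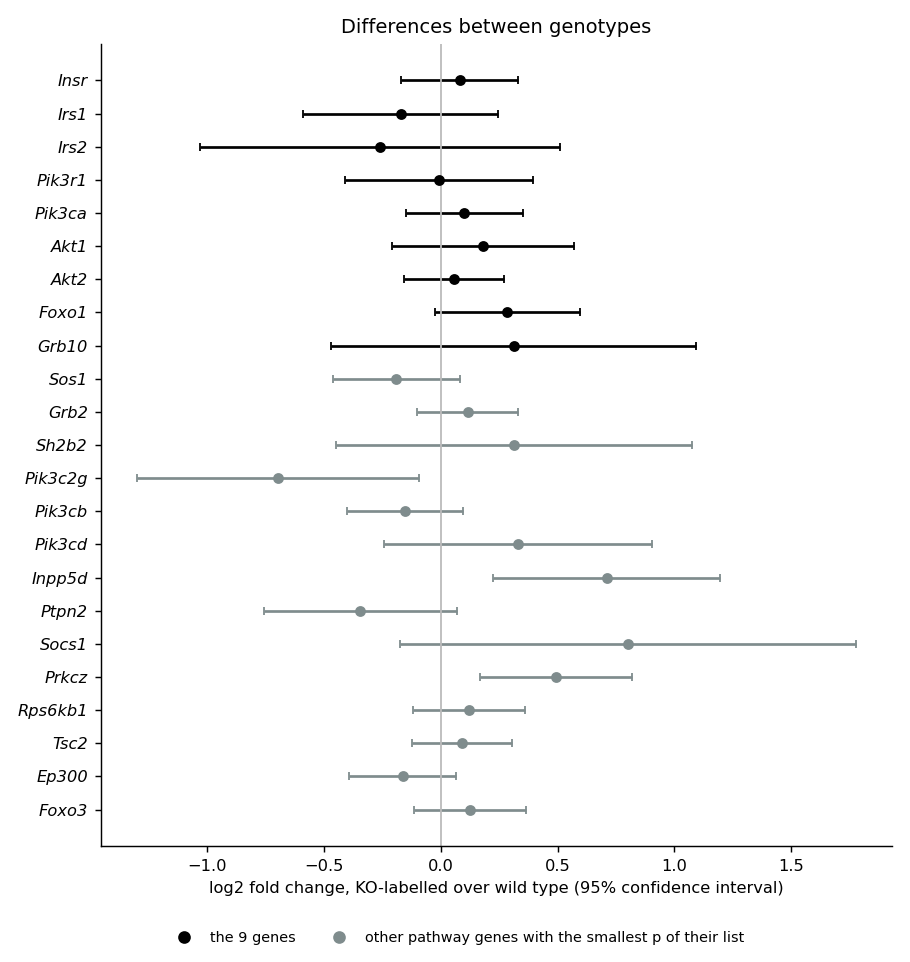
Log2 fold change, knockout-labelled over wild type, with its 95% confidence interval for the 9 genes (black) and for other pathway genes with the smallest p of their list (grey). The intervals of all 9 genes include 0; those of Pik3c2g, Inpp5d and Prkcz do not, and none of the plotted genes passed the adjusted threshold.

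The readout of the pathway in RNA was followed in 9 genes that FOXO1 activates in liver and 3 that insulin induces. None of the 11 tested genes passed (edgeR 0, with 0 at an unadjusted p under 0.05; DESeq2 0, limma-voom 0). Igfbp1, for a secreted binding protein of insulin-like growth factors, had 14.98, 10.2 and 18.6 CPM in knockout-labelled and 5.63, 1.91 and 11.3 CPM in wild type replicates 1, 2 and 3, a log2 fold change of 1.21 (SE 0.63, edgeR adjusted p 0.974). The ranges overlapped through knockout-labelled replicate 2 and wild type replicate 3; without wild type replicate 3 the value was 1.96 and without wild type replicates 1 and 3 it was 2.92, with 1 wild type library left, and neither passed. Pck1, for the gluconeogenic enzyme PEPCK, had 2157, 2179 and 2639 CPM in knockout-labelled and 337, 1216 and 2176 CPM in wild type replicates 1, 2 and 3 (0.90, SE 0.68), and its value was 0.45 without wild type replicate 1 and 1.57 without wild type replicate 3. G6pc, for glucose-6-phosphatase, had 83.1, 191 and 297 CPM in knockout-labelled and 75.3, 54.7 and 449 CPM in wild type replicates 1, 2 and 3 (-0.02, SE 1.03), and its value was 1.56 without wild type replicate 3.

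For both gluconeogenic genes the range over the wild type livers was wider than the difference between the genotype means. The other 6 FOXO1-activated genes, Ppargc1a, Pdk4, Sesn1, Sesn3, Mttp and Apoc3, had log2 fold changes of 0.05, -0.03, 0.04, -0.23, -0.04 and -0.14. Srebf1, for the lipogenic factor SREBP1 that insulin induces, had 241, 231 and 346 CPM in knockout-labelled and 319, 306 and 523 CPM in wild type replicates 1, 2 and 3 (-0.49, SE 0.25). Leaving out 1 library at a time, the value of Srebf1 lay between -0.70 and -0.20, the latter without wild type replicate 3. It was -0.18 with wild type replicates 1 and 3 both left out. DESeq2 gave Srebf1 an unadjusted p of 0.0236 and an adjusted p of 0.917. With the replicate block its adjusted p in edgeR was 0.0975, the smallest over the alternatives. Pnpla3, a lipid droplet enzyme gene, had 1 count in each knockout-labelled library and 8, 5 and 20 counts in wild type replicates 1, 2 and 3, below the filter.

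**Figure D4:**
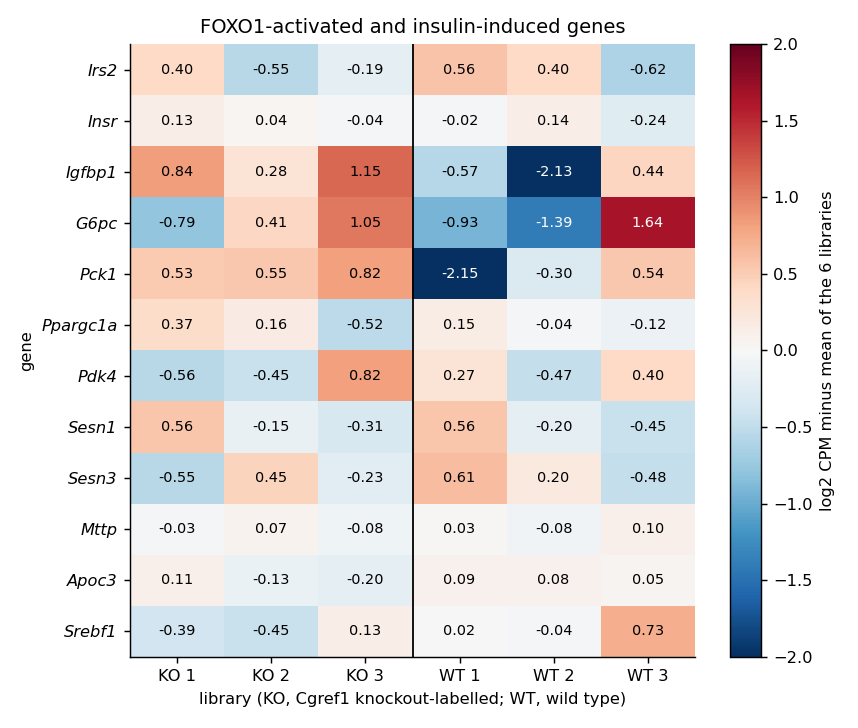
Log2 CPM of each gene minus its mean over the 6 libraries (colour, saturated at -2 and 2, with the value printed), libraries in columns with knockout-labelled left of wild type. Wild type replicate 3 has the highest G6pc (1.64) and Srebf1 (0.73) and the lowest Irs2 (-0.62); wild type replicate 1 has the lowest Pck1 (-2.15).

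In the KEGG terms of the deposited table, 123 of 136 genes of insulin signaling were tested and 0 passed in edgeR. At an unadjusted p under 0.05 there were 4 higher and 4 lower, 6.50% against 5.15% of all genes, and the median log2 fold change was -0.0081. In FoxO signaling 108 of 125 genes were tested, 0 passed in edgeR, and 2 were higher and 1 lower at an unadjusted p under 0.05, or 2.78%, with a median of 0.0085. DESeq2 called 3 genes of the first term, given with the alternatives, and limma-voom called 0 in either term.

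Genes whose pattern over the 6 libraries was most like that of 3 members were found by the root mean square difference of centred log2 CPM, among genes with a mean of at least 10 CPM. For Irs2 these were Tjp3, Mcc and Foxk1, at 0.135, 0.187 and 0.189, against a median of 0.484 over all 7164 genes compared. Nr1i3, Ncln and Gne stood nearest to Foxo1, at 0.0492 to 0.0502 (median 0.266). Ndc1, Rptor and Tm7sf3 stood nearest to Insr, at 0.0253 to 0.0364 (median 0.184). Rptor, which encodes the mTORC1 scaffold raptor, is also in the list of kinase and TOR complex genes. The nearest of so many genes over 6 libraries are close by selection, and shared regulation was not tested.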

How the data were processed

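Messenger RNA of 6 livers was sequenced, 3 labelled Cgref1 KO and 3 Wild Type. HISAT, Bowtie2, RSEM and DESeq2 are named in the submitters' processing notes, without versions. The authors deposited estimated counts (expected counts), FPKM and TPM values per gene, with log2 fold changes and q-values of their own comparison, per the file headers. The genome build is not named; the chromosome accessions are those of GRCm38. A total of 15 columns of values were not used.

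Expected counts were rounded to whole numbers, filtered with filterByExpr (minimum count 10), scaled by TMM and tested with edgeR 4.0.16 (quasi-likelihood, R 4.3.3) over all genes, with Benjamini-Hochberg adjustment at 0.05. DESeq2 1.42.0, limma 3.58.1 (voom, and log2 of TPM or FPKM plus 1 or 0.1), other scalings and filters, a replicate block and leaving out libraries were alternatives. Ratios were tested by exact permutation. The scripts were tested on simulated data. Of each pathway list, the 3 genes with the smallest p and the 2 with the highest TPM are named, except that some genes of these lists are not reported here. The members and lists were chosen with earlier results of these data known.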

Additional observations from a re-analysis of the deposited data

How the results depend on the processing

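None of the 9 genes passed the adjusted threshold in edgeR or in any alternative run that tested it. Irs2 and Grb10 were not tested in the run with a mean of at least 5 CPM, which removed them. Over all genes the count of 1 became 28 with DESeq2, 34 with the replicate block, 0 with a mean of at least 5 CPM, 0 without wild type replicates 1 and 3 together, and 1 to 5 leaving out a library, with 5 without knockout-labelled replicate 1. In the pathway lists and KEGG terms the count of 0 became 3 with DESeq2 (Fasn, Acaca and Acacb). It became 2 with the replicate block (Fasn and Acacb), and was 0 to 0 leaving out a library. The 3 genes are among the 123 tested of KEGG insulin signaling, and DESeq2 called 0.233% of all genes. All were lower in knockout-labelled libraries. The log2 fold changes were -1.115, -0.56 and -0.82 with DESeq2, and -1.04 and -0.80 with the block. At an unadjusted p under 0.05, Foxo1 passed with no filter, without wild type replicate 2 and without wild type replicate 3, and Grb10 without knockout-labelled replicate 1. The causes of these changes were not tested.

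Log2 fold changes that changed sign were, with library totals, Insr -0.0011, Akt2 -0.027, Ppargc1a -0.036 and Sesn1 -0.031. With limma-voom they were Pik3r1 0.0071 and G6pc 0.45. With log2(TPM + 1) they were Insr -0.043, Pik3ca -0.030, Akt2 -0.069, G6pc 0.31, Ppargc1a -0.051, Sesn1 -0.061, Grb2 -0.024, Rps6kb1 -0.11, Tsc2 -0.036 and Foxo3 -0.016. With log2(TPM + 0.1) they were Insr -0.046, Pik3ca -0.035, Akt2 -0.071, G6pc 0.31, Ppargc1a -0.10, Sesn1 -0.069, Grb2 -0.026, Rps6kb1 -0.11, Tsc2 -0.039 and Foxo3 -0.018, where the median of all genes was -0.13. With log2(FPKM + 1) they were Akt2 -0.017, G6pc 0.36, Ppargc1a -0.022, Sesn1 -0.015 and Rps6kb1 -0.056. Without wild type replicates 1 and 3 together they were Insr -0.10, Irs1 0.13, Akt1 -0.0011, Akt2 -0.038, G6pc 1.79, Pdk4 0.55, Mttp 0.048, Sh2b2 -0.18 and Pik3cd -0.028; the lone wild type library is then assumed to vary like the knockout-labelled ones.

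Leaving out 1 library at a time, signs changed within the ranges -0.015 to 0.18 for Insr, -0.31 to 0.022 for Irs1, -0.19 to 0.10 for Pik3r1, -0.49 to 1.56 for G6pc, -0.61 to 0.21 for Pdk4, -0.14 to 0.27 for Ppargc1a, -0.27 to 0.39 for Sesn1, -0.55 to 0.043 for Sesn3 and -0.077 to 0.0051 for Mttp. The differences in log2 ratio ranged over -0.22 to 0.61 for Irs1 over Irs2, -0.035 to 0.26 for Akt1 over Akt2, -0.11 to 0.33 for Pik3ca over Pik3r1 and -0.14 to 0.11 for Grb14 over Insr.

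The labels do not say that same-numbered samples are paired, so the main fit did not pair them. Deviations of same-numbered samples were correlated at 0.27, 0.0552 and 0.328, and those of differently numbered samples at -0.286 to -0.0105. Each sample thus correlated best with its own number, at only 0.0552 for number 2. Deviations were taken from the mean of each genotype, so the correlations of a sample nearly cancel by construction. Whether the numbers mark a shared effect was not tested. With the replicate block, 34 genes passed, none of the 9 members among them, and Pik3r1 (0.0061) and G6pc (0.42) changed sign. Grb10 had the lowest mean counts of the 9 members, with 28 to 79 counts per library. The part of depth in its wide interval was not tested.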

Other observations

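Libraries with high Irs2 had low G6pc in both genotypes: knockout-labelled replicate 1 had 5.95 CPM of Irs2 and 83.1 CPM of G6pc, wild type replicate 1 had 6.68 and 75.3 CPM, and wild type replicate 2 had 5.95 and 54.7 CPM. The other 3 libraries had 2.95 to 3.97 CPM of Irs2 and 191 to 449 CPM of G6pc. Other FOXO1-activated genes did not all follow G6pc. In knockout-labelled replicate 1 the log2 CPM of Pck1, Igfbp1 and Sesn1 stood 0.53, 0.84 and 0.56 above their means over the 6 libraries. In wild type replicates 1 and 2 these differences were -2.15 and -0.30 for Pck1, -0.57 and -2.13 for Igfbp1, and 0.56 and -0.20 for Sesn1. The pattern of Irs2 and G6pc was noticed in the values and was not tested.

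The deposited table gives the plus strand for Insr and Akt1, and the GENCODE annotation of GRCm38 the minus strand. The strand differed for 2381 of 15509 matched genes, or 15.4%.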
